A study of Drosophila melanogaster with 12 samples.

Results

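The genes described here are 40 genes that drive the cell division cycle and DNA replication, measured in the Drosophila melanogaster cell line Kc167, which came from embryos and resembles blood cells. They were chosen by name: genes that license replication origins, move cells out of G1 into S phase, or run mitosis. Each was read from the probe set annotated to it alone, and where a gene had several, from the one with the highest mean over all arrays. In this way 27 of the 40 were measured, among 11983 genes in the table. A probe set annotated to a single gene was required, so E2f1, which the annotation lists only together with another gene, and 12 others (dap, Orc6, geminin, Mcm7, RnrS, CycA, stg, Cdk1, polo, aurA, BubR1 and pav) were not analysed here.

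Treated cells received UPD conditioned medium for 30 min, where UPD is Unpaired, a secreted protein that activates JAK/STAT signalling, and control cells received Mock conditioned medium for the same time. Both media were then replaced by fresh Schneider's medium. RNA was taken 2, 4 or 10 h after the start of the exposure, which gives 6 groups, a UPD and a Mock group for each of the 3 times. Each group has 2 biological replicates and each sample was hybridised to its own Affymetrix array, so there are 12 arrays. All groups are of this cell line, and both treatments are conditioned media, not purified protein. The labels do not say whether replicates were separate cultures, so the p-values measure the spread between these samples, which may be technical.

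A cell commits to division in G1, when D-type and E-type cyclins and their kinases inactivate the retinoblastoma protein and release E2F, the transcription factor that turns on the genes of S phase. Before S phase, the origin recognition complex with Cdc6 and Cdt1 loads the ring-shaped Mcm helicase onto origins, a step called licensing, and replication forks later start from these sites. B-type cyclins then carry the cell into mitosis, where Aurora B, Bub1 and Cdc20 time the separation of the chromosomes. JAK/STAT signalling is known in Drosophila for effects on growth and on blood cell number, and cells in culture divide asynchronously, so each value is an average over cells in all phases.

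All values are log2 values of a probe set as deposited, and a difference of 1 between groups is a doubling or halving of the signal. A level is compared only within a probe set, since probe sets differ in brightness. All 27 genes lay above the median level of the 18769 probe sets tested. Of 10 plasmatocyte markers, 7 (srp, ush, Pxn, Hml, Col4a1, vkg and crq) were in the upper part of all probe sets by level, and NimC1, He and eater were near its middle. Of the 3 crystal cell markers, lz and PPO1 were among the dim probe sets and PPO2 was near the middle. Of the other lists bam of the germ line and elav of the neuron had high levels, nanos, Lsp2 and Fbp1 were near the middle, and nSyb, Mlc2 and up were dim.

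Replicates lay further apart at 10 h than at the earlier times. Over the 27 genes, the SD of a pair of replicates had a median of 0.309 in UPD cells and 0.405 in Mock cells at 10 h. At 4 h this median was 0.0461 in UPD cells and 0.112 in Mock cells, and at 2 h 0.0502 in UPD cells and 0.0522 in Mock cells. The deposited arrays share a median within each medium, but their upper quartile differed: at 10 h the UPD arrays had 6.11 and 6.63 and the Mock arrays 7.12 and 6.87, at 4 h the UPD arrays 7.26 and 7.15 and the Mock arrays 7.07 and 7.35, and at 2 h all arrays 7.39 to 7.55. By this measure the UPD arrays at 10 h stood below the other 10, while Mock 10 h replicate 1 was above Mock 4 h replicate 1. The signal of the Act5C probe set at its 3' end exceeded that at its 5' end by 1.37 and 1.25 in UPD cells and by 1.15 and 1.14 in Mock cells at 10 h, by 0.96 and 0.95 in UPD cells and 1.17 and 0.72 in Mock cells at 4 h, and by 0.71 to 0.89 at 2 h. The other control pairs differed from it: the older actin pair gave 0.58 and 0.55 in UPD cells and 0.66 and 0.46 in Mock cells at 10 h, and 0.56 to 0.68 at 2 h. The Gapdh pair gave 1.87 and 2.01 in UPD cells and 2.19 and 2.16 in Mock cells at 10 h, and 1.99 to 2.35 at 2 h. The eIF-4a pair gave 1.04 and 0.93 in UPD cells and 0.73 and 1.21 in Mock cells at 10 h, and 0.58 to 0.74 at 2 h. The part of these array differences in the results at 10 h was not tested.

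**Figure D1:**
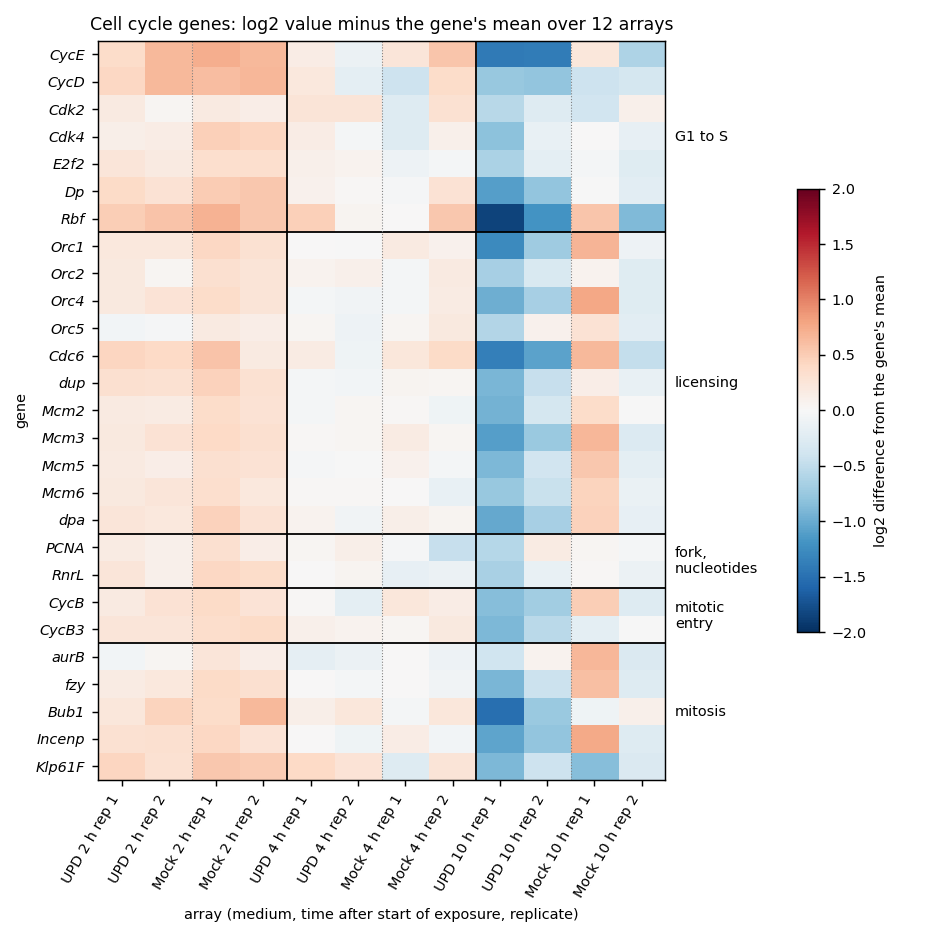
Heat map of the 27 measured genes (vertical axis, grouped by role) on the 12 arrays (horizontal axis, UPD left of Mock at each time); the colour gives the log2 value minus that gene's mean over the 12 arrays. The bluest column is UPD 10 h replicate 1, on which 26 of the 27 genes had their lowest value. This array also had the lowest upper quartile of the 12 (6.11), and the share of all probe sets lowest on it was not counted.

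At 10 h all 27 genes had a lower mean in UPD cells than in Mock cells, with a median difference of −0.81. For all probe sets the median of this difference was −0.18, and for the 9384 probe sets above the median level, called the brighter ones here, it was −0.41. In 20 of the 27 genes both UPD arrays lay below both Mock arrays, where 36.8% of the brighter probe sets and 24% of all probe sets did so. By limma's moderated test, adjusted over all probe sets, 0 of the 27 passed the threshold of 0.05, at a background of 1.06% of probe sets called, and the smallest adjusted p was 0.124, of Orc1. At an unadjusted p under 0.05 there were 15 of the 27, all lower, against 13.4% of all probe sets and 24.1% of the brighter ones that were lower at this level. Fewer cells in a phase and less RNA per cell cannot be told apart in these bulk samples.

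Markers of the blood cell type were compared at 10 h as well. Of the 10 plasmatocyte markers, 9 had a lower mean in UPD cells than in Mock cells, and eater had a higher one, by 1.86 (SE 1.55). In 5 both UPD arrays lay below both Mock arrays, where 24% of all and 36.8% of the brighter probe sets did so. Limma called 3 lower, where it called 1.06% of all probe sets in either direction. These were the collagen genes vkg, which fell by 2.35 (adjusted p = 0.027), and Col4a1, which fell by 2.33 (adjusted p = 0.0416), and the peroxidase gene Pxn, which fell by 1.87 (adjusted p = 0.0477). All 3 calls were lost with only the arrays at 10 h, where limma called 0 of 18769 probe sets. With the replicate number as a block it called 1 of 18769 probe sets, so at most 1 of the 3 calls could remain. The mean level of the 10 markers was 4.89 and 5.69 in UPD cells and 5.96 and 6.75 in Mock cells at 10 h. The neuron marker elav differed by −1.34 (adjusted p = 0.11), and the dim nSyb of the same list by 1.22 (adjusted p = 0.756). Of the 3 crystal cell markers 0 were called, and 1 had a lower mean in UPD cells. Of the muscle, fat body and germ line markers, 2 measured in each list, 0 were called and 0 had a lower mean in UPD cells. Both UPD arrays lay above both Mock arrays in PPO2 (0.77), bam (0.38) and the dim Mlc2 (5.04). The part of these marker differences in the results on the 27 genes was not tested.

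The outcome of the test depended on which probe sets entered it and on the moderation, and the size of the differences on which arrays entered. With the 9384 brighter probe sets alone, limma called 9 of the 27 lower (CycE, Dp, Orc1, Orc4, Cdc6, Mcm3, dpa, Bub1 and Incenp), at a background of 18.3% of these probe sets called lower. With a variance trend and robust moderation 10 were called lower, at a background of 9.51%: the 9 without Dp, and Rbf and CycB. Leaving out Mock 10 h replicate 2 moved the median of the 27 to −1.02, and leaving out Mock 10 h replicate 1 moved it to −0.52. The differences of 16 of the 27 genes moved by over 1.5 times without Mock 10 h replicate 1, of 11 without UPD 10 h replicate 1, of 8 without UPD 10 h replicate 2 and of 6 without Mock 10 h replicate 2. Mock 10 h replicate 1 was the highest of the 4 at 10 h for 21 of the 27 genes, and UPD 10 h replicate 1 was the lowest for 26. The share of all probe sets in this order was not counted. Among these 4 arrays, Mock 10 h replicate 1 also had the highest upper quartile (7.12) and UPD 10 h replicate 1 the lowest (6.11).

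The size of the median difference also changed with the scaling of the arrays and with removal of a trend with gene length. After quantile normalization, which gives every array the same distribution, the median difference of the 27 was −0.45, with 20 genes below 0, while that of all probe sets was 0.00. The median over all probe sets includes the dim ones here too, so it is not a like background for the 27 genes. Among the brighter probe sets the difference at 10 h grew with the length of the gene: the median was −0.11 in the shortest tercile, −0.59 in the middle one and −0.80 in the longest one. The 27 genes had a median genomic length of 2884 bp, against 2850 bp for the brighter probe sets with a known length. Of the 27 genes, 20 lay in the middle tercile, with a median of −0.82, 4 in the shortest, with −0.33, and 3 in the longest, with −0.84. With the trend with length removed from each array, the median of the 27 was −0.18, with 17 genes below 0. The trend was fitted to the brighter probe sets, which include all 27 genes, but was removed from the dim ones too. The median over all probe sets with a length, 0.17, includes these dim ones and is not a like background for the 27 genes.

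**Figure D2:**
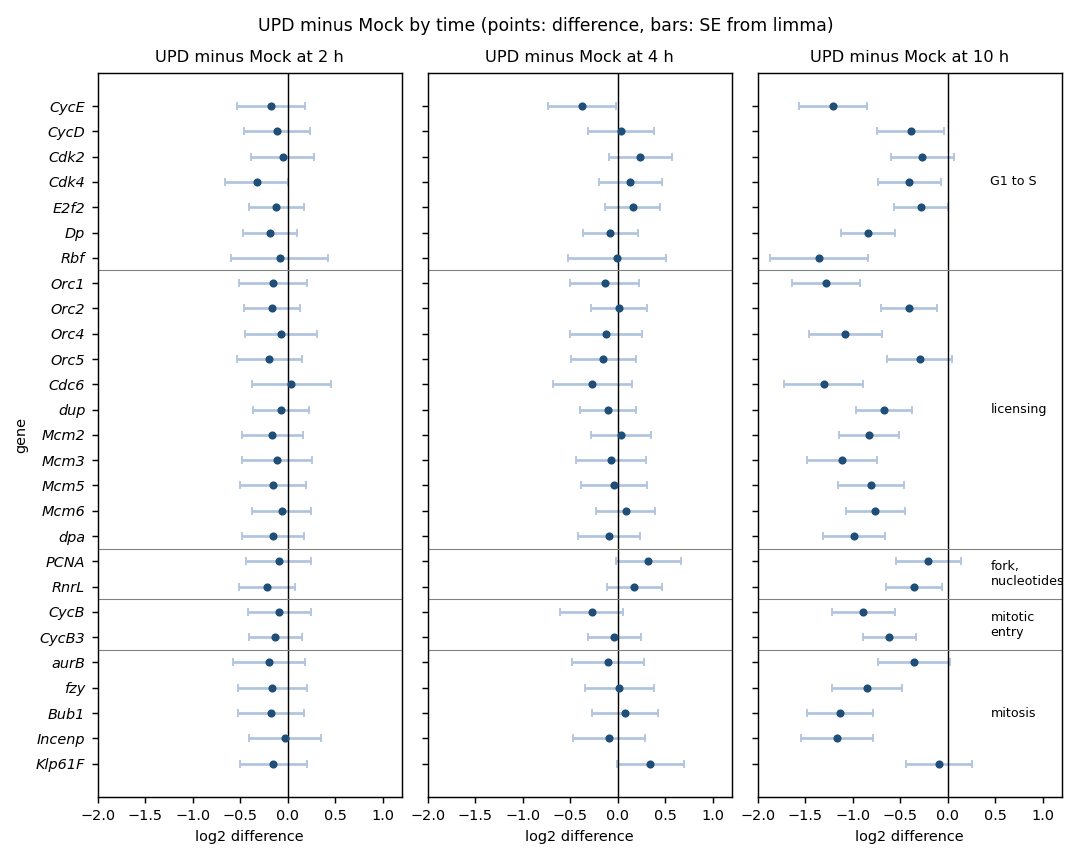
UPD minus Mock log2 difference (horizontal axis) of each gene (vertical axis, grouped by role) at 2, 4 and 10 h; points are differences of means of 2 arrays and bars the limma SE. At 2 h the differences lie between −0.32 and 0.04, at 4 h between −0.38 and 0.34, and at 10 h between −1.36 and −0.09.

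Of the regulators of the step from G1 to S, 7 of 9 were measured, and at 10 h they split into 3 genes with large differences and 4 with small ones. CycE, Rbf and Dp differed between UPD and Mock by −0.84 or more in size, while Cdk4, CycD, E2f2 and Cdk2 differed by −0.41, −0.39, −0.28 and −0.27. The median of the 7 was −0.41, as was that of the brighter probe sets, and it turned to 0.04 after quantile normalization and to 0.23 with the length trend removed.

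CycE encodes cyclin E, the cyclin that activates Cdk2 for entry into S phase. In UPD cells CycE had 8.08 and 8.36 at 2 h, 7.86 and 7.60 at 4 h, and at 10 h 6.30 and 6.31. In Mock cells CycE had 8.44 and 8.36 at 2 h, 7.95 and 8.26 at 4 h, and at 10 h 7.93 and 7.09. The UPD values at 10 h were nearly the same on both arrays, and the UPD arrays lay below both Mock arrays at 4 h and at 10 h but not at 2 h. The difference between UPD and Mock was −1.21 (SE 0.36) at 10 h, a level 2.31-fold lower in UPD cells, with an adjusted p of 0.139 by limma. At 4 h it was −0.38 (SE 0.36), the largest in size of the G1 to S genes at that time, with an adjusted p of 1.

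Rbf is the retinoblastoma protein of the fly, which holds E2F inactive until cyclin-dependent kinases phosphorylate it. In UPD cells Rbf had 6.25 and 6.33 at 2 h, 6.23 and 5.82 at 4 h, and at 10 h 3.91 and 4.57. In Mock cells Rbf had 6.45 and 6.30 at 2 h, 5.76 and 6.30 at 4 h, and at 10 h 6.31 and 4.88. The groups overlapped at 2 h and at 4 h, and at 10 h both UPD arrays lay below both Mock arrays, although Mock 10 h replicate 2 was much nearer to the UPD arrays than to Mock 10 h replicate 1. The difference between UPD and Mock at 10 h was −1.36 (SE 0.51), the largest among the 27 genes, with an adjusted p of 0.229.

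Dp, the partner that E2F proteins need to bind DNA, had 9.16 and 9.07 at 2 h, 8.86 and 8.80 at 4 h, and at 10 h 7.68 and 7.99 in UPD cells. In Mock cells Dp had 9.29 and 9.32 at 2 h, 8.76 and 9.06 at 4 h, and at 10 h 8.77 and 8.57. Its UPD values were below both Mock values at 2 h and at 10 h. At 10 h the difference between UPD and Mock was −0.84 (SE 0.29), with an adjusted p of 0.189. Under removal of the length trend it was −0.01.

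Cdk4, the kinase partner of cyclin D, had 7.84 and 7.87 at 2 h, 7.88 and 7.69 at 4 h, and at 10 h 6.90 and 7.58 in UPD cells. In Mock cells Cdk4 had 8.21 and 8.16 at 2 h, 7.47 and 7.84 at 4 h, and at 10 h 7.73 and 7.56. Both UPD arrays were below both Mock arrays at 2 h, when the difference of −0.32 (SE 0.33) was the largest in size of the 27 genes, and the groups overlapped at 4 h and 10 h. CycD, the cyclin itself, and Cdk2, the kinase partner of cyclin E, had differences between UPD and Mock of −0.11 and −0.05 at 2 h and of 0.03 and 0.24 at 4 h. E2f2, a repressor member of the E2F family in flies, differed by −0.12 at 2 h and by 0.16 at 4 h, and at each of these times its UPD arrays lay on 1 side of its Mock arrays, below at 2 h and above at 4 h.

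**Figure D3:**
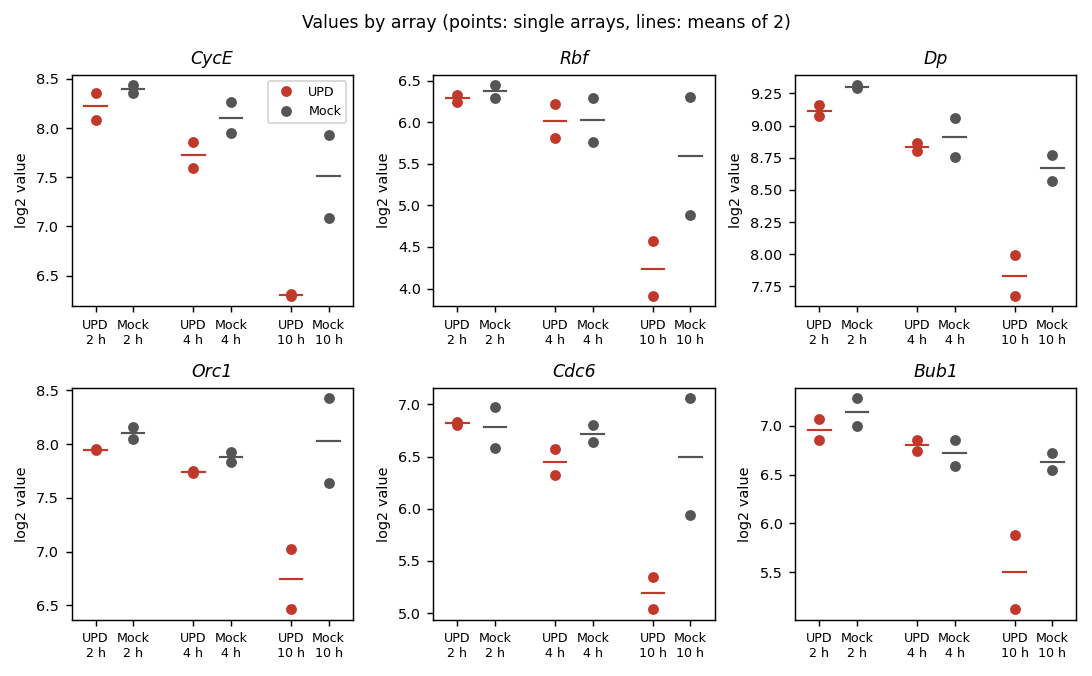
Log2 values (vertical axes, each with its own range) of CycE, Rbf, Dp, Orc1, Cdc6 and Bub1 on each array, with UPD in red left of Mock in grey at 2, 4 and 10 h; points are single arrays and lines the means of 2. In each of the 6 genes both UPD arrays at 10 h lie below both Mock arrays at 10 h. All 6 have differences at 10 h larger in size than the median of the 27 genes (−0.81). Over all 27 genes 20 lie below in this way, where 36.8% of the brighter probe sets and 24% of all probe sets do so.

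Of 14 licensing genes 11 were measured, and at 10 h in 10 of these both UPD arrays lay below both Mock arrays, Orc5 being the exception, at the background of 36.8% of the brighter probe sets. Their median difference between UPD and Mock was −0.83, and 8 of the 11 were under an unadjusted p of 0.05, where 24.1% of the brighter probe sets were lower at this level. The median was −0.54 after quantile normalization, with 9 of 11 below 0, and −0.22 with the length trend removed.

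The origin recognition complex binds origins and recruits the loading factors. Orc1, its ATPase subunit, had 6.46 and 7.03 in UPD cells and 8.42 and 7.64 in Mock cells at 10 h, a difference of −1.28 (SE 0.36) and a level 2.44-fold lower in UPD cells, with an adjusted p of 0.124. Orc4, another ATPase-like subunit, had 7.43 and 7.75 in UPD cells and 9.18 and 8.16 in Mock cells at 10 h, a difference of −1.08 (SE 0.38). For both genes both UPD arrays lay below both Mock arrays, and Mock 10 h replicate 1 was the highest of all 12 arrays. Without it the difference was −0.89 for Orc1 and −0.57 for Orc4. Orc2 differed less between UPD and Mock at 10 h, by −0.41 (SE 0.29), and its difference turned to 0.10 after quantile normalization and to 0.09 with the length trend removed.

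Orc5, also a subunit of this complex, had 7.85 and 7.88 at 2 h, 7.94 and 7.79 at 4 h, and at 10 h 7.30 and 7.98 in UPD cells. In Mock cells Orc5 had 8.08 and 8.03 at 2 h, 7.94 and 8.10 at 4 h, and at 10 h 8.19 and 7.68. UPD 10 h replicate 2 was higher than Mock 10 h replicate 2, so the groups overlapped, and the difference at 10 h of −0.29 (SE 0.34) was smaller than its SE and turned to 0.21 after quantile normalization and to 0.07 with the length trend removed. At 2 h the difference between UPD and Mock was −0.19 (SE 0.34), with both UPD arrays below both Mock arrays.

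Cdc6, the ATPase that joins the origin complex to load Mcm rings, had 6.83 and 6.81 at 2 h, 6.57 and 6.33 at 4 h, and at 10 h 5.04 and 5.35 in UPD cells. In Mock cells Cdc6 had 6.98 and 6.59 at 2 h, 6.63 and 6.80 at 4 h, and at 10 h 7.06 and 5.94. It was the only one of the 27 genes with a mean difference above 0 at 2 h, 0.04 (SE 0.41), and at 4 h and 10 h both UPD arrays were below both Mock arrays. The difference between UPD and Mock was −0.27 (SE 0.41) at 4 h and −1.31 (SE 0.41) at 10 h, with an adjusted p of 0.16 at 10 h. The Mock arrays at 10 h were themselves far apart. The gene dup, which encodes the Cdt1 protein of flies, differed by −0.67 (SE 0.29) at 10 h, and with the length trend removed by 0.10.

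The Mcm proteins form the helicase ring, and 5 of its 6 subunits were measured, with dpa encoding Mcm4. At 10 h the difference between UPD and Mock was −0.83 (SE 0.32) for Mcm2, −1.12 (SE 0.37) for Mcm3, −0.99 (SE 0.33) for dpa, −0.81 (SE 0.35) for Mcm5 and −0.76 (SE 0.31) for Mcm6. In all 5 both UPD arrays lay below both Mock arrays. For Mcm3, with the largest difference, the values at 10 h were 8.59 and 8.95 in UPD cells and 10.35 and 9.42 in Mock cells. For Mcm6, with the smallest, they were 9.45 and 9.76 in UPD cells and 10.66 and 10.08 in Mock cells. The differences of these 5 genes remained below 0 after quantile normalization, between −0.77 and −0.48, and with the length trend removed, between −0.49 and −0.15.

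Of the genes of the fork and of nucleotide supply, 2 of 3 were measured, and both differed little at 10 h. PCNA, the sliding clamp that holds polymerases on DNA, had 11.98 and 11.91 at 2 h, 11.86 and 11.94 at 4 h, and at 10 h 11.24 and 11.98 in UPD cells. In Mock cells PCNA had 12.13 and 11.95 at 2 h, 11.79 and 11.36 at 4 h, and at 10 h 11.85 and 11.77. At 4 h both UPD arrays were above both Mock arrays and the difference was 0.32 (SE 0.34), with Mock 4 h replicate 2 lower than all but 1 of the 12 arrays. At 10 h the groups overlapped, since UPD 10 h replicate 2 was the highest of the 4 arrays, and the difference was −0.20 (SE 0.34).

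RnrL encodes the large subunit of ribonucleotide reductase, which makes deoxyribonucleotides. In UPD cells RnrL had 11.26 and 11.13 at 2 h, 11.03 and 11.08 at 4 h, and at 10 h 10.37 and 10.87. In Mock cells RnrL had 11.44 and 11.39 at 2 h, 10.85 and 10.91 at 4 h, and at 10 h 11.05 and 10.90. Its UPD arrays lay below its Mock arrays at 2 h, above them at 4 h and below them at 10 h, with differences of −0.22 (SE 0.29), 0.18 (SE 0.29) and −0.35 (SE 0.29). These directions depended on the scaling: the difference was −0.05 at 4 h after quantile normalization and 0.28 at 10 h with the length trend removed. The moderated F test of a difference between times gave it an adjusted p of 0.916.

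Mitotic entry was read from the B-type cyclins, 2 of 5 listed genes. CycB, the cyclin that activates Cdk1, had 9.81 and 9.93 at 2 h, 9.65 and 9.43 at 4 h, and at 10 h 8.77 and 8.94 in UPD cells. In Mock cells CycB had 10.01 and 9.90 at 2 h, 9.86 and 9.78 at 4 h, and at 10 h 10.12 and 9.38. Both UPD arrays were below both Mock arrays at 4 h and 10 h, with differences of −0.27 (SE 0.33) and −0.89 (SE 0.33) and an adjusted p of 0.223 at 10 h.

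CycB3, a further B-type cyclin that acts in mitosis, had 7.37 and 7.38 at 2 h, 7.24 and 7.22 at 4 h, and at 10 h 6.25 and 6.60 in UPD cells. In Mock cells CycB3 had 7.49 and 7.52 at 2 h, 7.18 and 7.34 at 4 h, and at 10 h 6.95 and 7.13. The UPD arrays lay below the Mock arrays at 2 h and at 10 h and overlapped with them at 4 h. The difference between UPD and Mock was −0.13 (SE 0.28) at 2 h and −0.62 (SE 0.28) at 10 h, and at 10 h it was −0.01 after quantile normalization and 0.01 with the length trend removed.

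Of the genes that act within mitosis, 5 of 9 were measured, and their median difference between UPD and Mock at 10 h was −0.85. It was −0.45 after quantile normalization and −0.36 with the length trend removed. In Bub1, Incenp and fzy both UPD arrays lay below both Mock arrays, while aurB and Klp61F overlapped between the groups. Of the brighter probe sets 36.8% lay below in this way, and of all probe sets 24%.

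Bub1 is a kinase of the spindle checkpoint, which delays chromosome separation until every kinetochore is attached. In UPD cells Bub1 had 6.85 and 7.07 at 2 h, 6.74 and 6.86 at 4 h, and at 10 h 5.12 and 5.88. In Mock cells Bub1 had 7.00 and 7.28 at 2 h, 6.59 and 6.85 at 4 h, and at 10 h 6.55 and 6.72. The groups overlapped at 2 h and 4 h, and at 10 h the UPD arrays were lower than all the other 10 arrays. The difference at 10 h was −1.13 (SE 0.35), a level 2.19-fold lower in UPD cells, with an adjusted p of 0.148.

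Incenp, the scaffold that activates Aurora B on chromosomes, had 9.90 and 9.91 at 2 h, 9.60 and 9.51 at 4 h, and at 10 h 8.54 and 8.80 in UPD cells. In Mock cells Incenp had 10.00 and 9.85 at 2 h, 9.74 and 9.54 at 4 h, and at 10 h 10.34 and 9.32. Only at 10 h did the UPD arrays lie apart from the Mock arrays, and Mock 10 h replicate 1 was the highest of the 12 arrays. The difference at 10 h was −1.16 (SE 0.38), with an adjusted p of 0.169.

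The kinase that Incenp activates, aurB, had 9.10 and 9.19 at 2 h, 8.97 and 9.04 at 4 h, and at 10 h 8.75 and 9.23 in UPD cells. In Mock cells aurB had 9.40 and 9.28 at 2 h, 9.16 and 9.05 at 4 h, and at 10 h 9.82 and 8.87. At 10 h UPD replicate 2 was above Mock replicate 2, and the difference of −0.36 (SE 0.38) was smaller than its SE. The difference at 2 h was −0.20 (SE 0.38), with both UPD arrays below both Mock arrays.

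The anaphase activator fzy, the Cdc20 of flies, had 8.82 and 9.32 in UPD cells and 10.35 and 9.49 in Mock cells at 10 h, a difference of −0.85 (SE 0.36). Its other probe sets, both dim, had differences of −0.39 (SE 1.26) and 1.13 (SE 1.25), which disagree in sign. Klp61F, the kinesin-5 motor that pushes spindle poles apart, had 9.72 and 9.59 at 2 h, 9.69 and 9.56 at 4 h, and at 10 h 8.38 and 8.87 in UPD cells. In Mock cells Klp61F had 9.83 and 9.79 at 2 h, 9.02 and 9.55 at 4 h, and at 10 h 8.43 and 9.00. Both media had low values at 10 h, and the difference there was −0.09 (SE 0.35), the smallest in size of the 27. It turned to 0.22 after quantile normalization and to 0.68 with the length trend removed. At 4 h both UPD arrays were above both Mock arrays and the difference was 0.34 (SE 0.35).

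**Figure D4:**
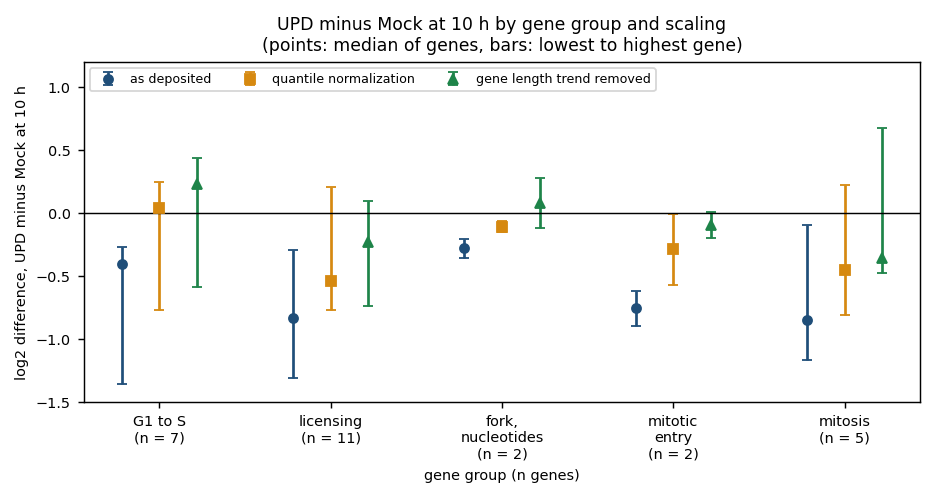
UPD minus Mock log2 difference at 10 h (vertical axis) for the 5 role groups (horizontal axis) as deposited, after quantile normalization and with the gene length trend removed; points are group medians and bars run from the lowest to the highest gene. The licensing median is −0.83, −0.54 and −0.22, and the G1 to S median is −0.41, 0.04 and 0.23.

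At 2 h the genes of all phases differed little between UPD and Mock. Their median difference was −0.15, against −0.10 for all probe sets and −0.11 for the brighter ones, and 26 of the 27 were below 0. In 15 of the 27 both UPD arrays lay below both Mock arrays, where 44.3% of the brighter probe sets and 31.2% of all probe sets did so. By limma 0 of 27 were called, against 0.00533% of all probe sets, and 0 had an unadjusted p under 0.05. The group medians lay between −0.16 and −0.11. After quantile normalization the median of the 27 was −0.05, with 19 below 0, and with the length trend removed it was −0.01.

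At 4 h the 27 genes were spread on both sides of 0, with 15 below and 12 above and a median of −0.03, against −0.02 for all probe sets and 0.02 for the brighter ones. Both UPD arrays lay below both Mock arrays in 8 of the 27, where 15.9% of the brighter and 19% of all probe sets did so. They lay above in 5 (Mcm6, E2f2, RnrL, PCNA and Klp61F), where 17.9% of the brighter probe sets did so. By limma 0 of 27 were called, as were 0% of all probe sets, and 0 had an unadjusted p under 0.05. The median of the 27 was −0.09 after quantile normalization and 0.02 with all arrays set to 1 common median. The SE of a difference was 0.28 to 0.51, and it limits what could be seen at the early times.

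Whether the difference between UPD and Mock changed with time was tested with limma's moderated F test over the 3 times. Of the 27 genes 0 passed, as did 0% of all probe sets, and 0 of the 27 had an unadjusted p under 0.05, against 1671 of the 18769 probe sets. The smallest adjusted p among the 27 was 0.638, of Bub1.

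Time within each medium was then compared; the comparison within UPD cells shares its 10 h arrays with that of UPD and Mock at 10 h. In UPD cells the mean at 10 h was lower than the mean at 2 h for all 27 genes, with a median difference of −1.00, against −0.31 for all probe sets and −0.80 for the brighter ones. Limma called 4 of the 27 lower and 0 higher, where it called 9.46% of all probe sets in either direction, 8.46% of all and 16.6% of the brighter probe sets lower. The 4 were 3 regulators of G1 to S and the checkpoint kinase: CycE fell by 1.92 (SE 0.36, adjusted p = 0.0262), Rbf fell by 2.05 (SE 0.51, adjusted p = 0.0484), Dp fell by 1.28 (SE 0.29, adjusted p = 0.0377) and Bub1 fell by 1.46 (SE 0.35, adjusted p = 0.0428). Cdc6 missed the threshold narrowly, at −1.63 (SE 0.41) with an adjusted p of 0.0508.

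In 24 of the 27 genes both UPD arrays at 10 h lay below both UPD arrays at 2 h, where 66.9% of the brighter probe sets did so, and the other 3 were Orc5, PCNA and aurB. The G1 to S genes had a median of −1.28, licensing genes −1.00, fork and nucleotide genes −0.45, B-type cyclins −0.98 and mitotic genes −1.03. These calls were sensitive to the setting. With the brighter probe sets alone 17 of the 27 were called lower, at a background of 40.1%, and with the variance trend and robust moderation 19, at a background of 20.3%. None was called after quantile normalization, with the length trend removed, with the replicate block or with only the 4 arrays compared. In these settings 335 of 18769, 213 of 13544, 631 of 18769 and 0 of 18769 probe sets were called lower. Without 1 of the 4 arrays compared, the median of the 27 lay between −1.13 and −0.78. The median of the 27 was −0.29 after quantile normalization and −0.02 with the length trend removed.

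In Mock cells the 10 h arrays had a median difference from the 2 h arrays of −0.28 over the 27 genes, against −0.26 for all probe sets and −0.41 for the brighter ones. In 13 of the 27 both Mock arrays at 10 h were below both at 2 h, where 49.3% of the brighter probe sets were, and limma called 0 of the 27, as it called 0% of all probe sets. At an unadjusted p under 0.05 there were 3 of the 27, where 10.6% of all and 17.6% of the brighter probe sets were lower at this level: Klp61F with −1.09 (SE 0.35), CycD with −1.02 (SE 0.35) and CycE with −0.88 (SE 0.36). The G1 to S genes had a median of −0.63 and licensing genes −0.15, of which 2 of 11 did not overlap between the times. The median of the 27 turned to 0.11 after quantile normalization and to 0.12 with the length trend removed, and without Mock 10 h replicate 1 it was −0.55 and without Mock 10 h replicate 2 −0.06.

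**Figure D5:**
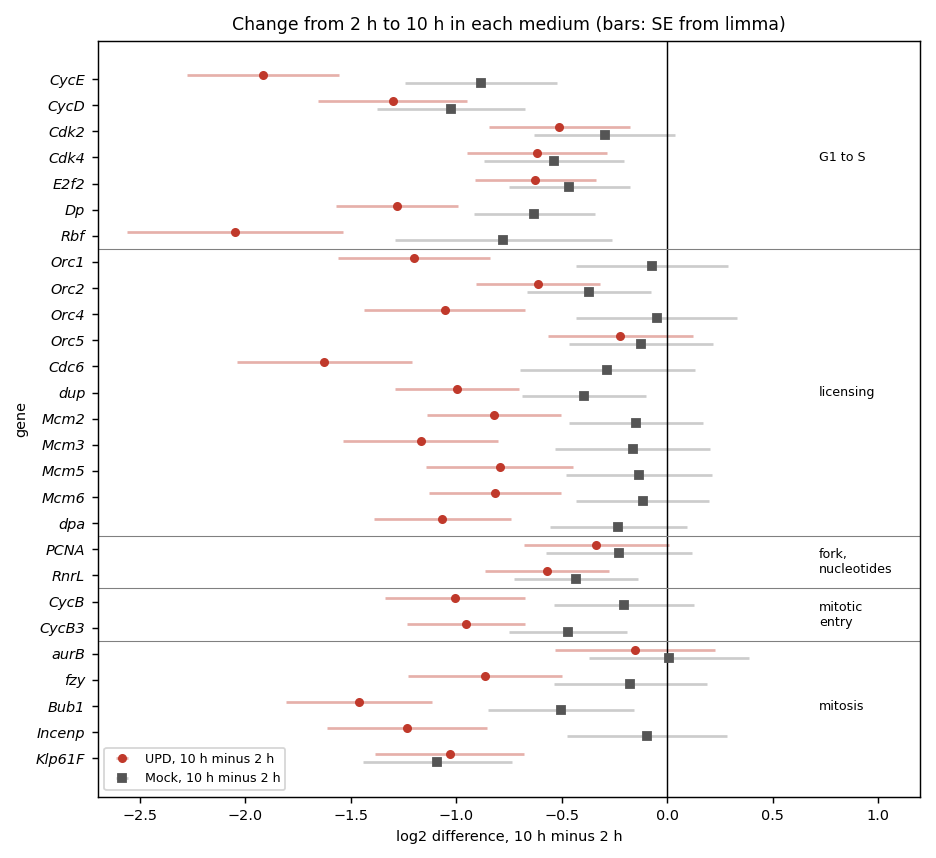
Log2 difference between 10 h and 2 h (horizontal axis) within UPD cells (red circles) and within Mock cells (grey squares) for each gene (vertical axis, grouped by role); bars are the limma SE. For licensing genes the UPD points lie between −1.63 and −0.22 and the Mock points between −0.40 and −0.05, while Klp61F lies near −1 in both media, at −1.03 and −1.09.

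Between 2 h and 4 h the changes were small in both media. In UPD cells the 4 h arrays differed from the 2 h arrays by a median of −0.19 over the 27 genes, against −0.16 for all probe sets, with 20 of the 27 not overlapping and lower, where 60.7% of the brighter probe sets were. Limma called 0 of the 27, against 0.0107% of all probe sets, and 0 had an unadjusted p under 0.05. In Mock cells the median was −0.29, against −0.23 for all probe sets, with 23 of the 27 not overlapping and lower, where 67.8% of the brighter probe sets were. Limma called 0 of the 27 here too, as 0% of all probe sets, and 0 had an unadjusted p under 0.05. After quantile normalization these medians were −0.01 in UPD cells and 0.04 in Mock cells.

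Other genes of the same processes were read from 3 lists: 29 measured genes of the replication fork of 31 listed, 50 mitotic genes of 56, and 20 genes around E2F, Rb and the damage checkpoint of 22. Between UPD and Mock at 10 h their medians were −0.44, −0.44 and −0.45, close to that of the brighter probe sets. Limma called 1 fork gene lower, 1 mitotic gene lower and 0 of the E2F, Rb and checkpoint list, and none higher, where it called 1.06% of all probe sets. At an unadjusted p under 0.05 there were 6 of 29, 15 of 50 and 7 of 20, all lower, where 24.1% of the brighter probe sets were. At 2 h their medians were −0.09, −0.17 and −0.13 and at 4 h 0.07, −0.01 and 0.04, with 0 called and 0 at an unadjusted p under 0.05 at both times.

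The fork gene was PolE1, the catalytic subunit of DNA polymerase epsilon. At 10 h it had 4.29 and 5.20 in UPD cells and 7.61 and 7.56 in Mock cells. Its other 8 arrays lay between 7.41 and 7.69, so that the UPD arrays at 10 h stood alone among the 12. It fell by 2.84 (SE 0.36) in UPD cells relative to Mock cells, with an adjusted p of 0.027 by limma, and the difference was −2.09 after quantile normalization (adjusted p = 0.0168) and −1.98 with the length trend removed (adjusted p = 0.0102).

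The mitotic gene was shtd, the largest subunit of the anaphase-promoting complex, the ligase that fzy activates. It had 5.16 and 5.42 in UPD cells and 7.65 and 7.34 in Mock cells at 10 h, and its other 8 arrays lay between 7.34 and 7.64. It fell by 2.21 (SE 0.28) in UPD cells relative to Mock cells, with an adjusted p of 0.0274, and the difference was −1.43 after quantile normalization (adjusted p = 0.0168) and −1.35 with the length trend removed (adjusted p = 0.0153). Both calls were lost with only the 4 arrays at 10 h (adjusted p = 0.63), with the replicate block (0.0736 for PolE1 and 0.074 for shtd), without any single array of 2 h or 4 h, or without Mock 10 h replicate 1, and that of shtd also without UPD 10 h replicate 1.

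Within UPD cells, 10 h against 2 h, limma called 3 fork genes, 9 mitotic genes and 4 genes around E2F, Rb and the checkpoint lower and none higher, of 29, 50 and 20 measured, where 16.6% of the brighter probe sets were called lower. The medians of the lists were −0.56, −0.85 and −1.18. Among the fork genes PolE1 fell by 2.80 (adjusted p = 0.0128) and Cdc7, the kinase that fires licensed origins, fell by 1.84 (0.0232). Among the mitotic genes shtd fell by 2.22 (adjusted p = 0.0127), mars, a spindle protein, fell by 1.94 (0.0222) and Cap-D2, a subunit of condensin, fell by 1.69 (0.0222). Of the last list mei-41, the ATR kinase of flies, fell by 2.95 (adjusted p = 0.0253), ago, which targets cyclin E for degradation, fell by 1.53 (0.0293) and mip130, of the complex that holds E2f2 and Rbf, fell by 1.52 (0.0301). Of the genes named here, only PolE1 and shtd were called after quantile normalization, and the same genes with the length trend removed. With the length trend removed, the other genes named had differences between −1.66 and −0.18, with adjusted p-values by limma of 0.12 to 0.775. All of these calls, with those of PolE1 and shtd, were lost with only the 4 arrays compared, where limma called 0 of all probe sets.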

How the data were processed

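Total RNA of 12 samples was hybridised to Affymetrix arrays. The authors deposited 1 number per probe set and array, used here as log2 values as deposited; the base was inferred from their range, −15.8 to 14.0. No tool or normalization behind them is given in the sources used here. Arrays of a medium share a median (2.33 for UPD, 2.38 for Mock), and no detection calls were used.

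Groups came from the sample titles. Of 18952 probe sets, 183 controls were left out and 18769 tested. GEO's platform annotation, updated through RefSeq gene IDs of assembly Release 6, gave 13647 of them 1 gene, 402 several and 4720 none. No sequences or coordinates were used.

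With R 4.3.3 and limma 3.58.1, 6 group means were fitted to all 12 arrays (6 residual degrees of freedom) and the variances moderated by empirical Bayes (prior SD 0.57 with 1.54 degrees of freedom). P-values are two-sided and adjusted by Benjamini-Hochberg over all probe sets of a comparison, with a threshold of 0.05; a gene is called when it passes. SE is limma's moderated one. The script was tested on simulated data. The few arrays limit the precision.

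The genes and lists were chosen with earlier results of these data known. All 12 values are given for genes that passed in a comparison and for the gene of each role group with the largest difference at each time; of the further lists up to 3 called genes each are named. Genes printed beyond these were chosen after their values were seen. Alternatives were quantile normalization, 1 common median, a filter on low values (the probe sets with a mean above the median), robust moderation with a variance trend, only the arrays compared, the replicate number as a block, removal of a lowess trend (span 0.5) with genomic gene length, the mean over a gene's probe sets, and each array left out. A fit to the 8 arrays of 2 and 4 h with the filter was chosen after seeing the data.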

Additional observations from a re-analysis of the deposited data

Results flagged for a closer look

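In 4 genes every UPD array lay on 1 side of every Mock array at 1 time and on the opposite side at another. How many of all probe sets did so was not counted. Of the brighter probe sets, 44.3% had both UPD arrays below both Mock arrays at 2 h, 17.9% above at 4 h and 36.8% below at 10 h. For E2f2 the difference between UPD and Mock at 4 h exceeded that at 2 h by 0.28 (0.16 at 4 h and −0.12 at 2 h). For RnrL it exceeded that at 2 h by 0.39 at 4 h, and the difference at 10 h minus that at 4 h was −0.53 (−0.35 at 10 h and 0.18 at 4 h). For Klp61F the 4 h difference exceeded that at 2 h by 0.49 (0.34 at 4 h and −0.15 at 2 h). For Mcm6 the 10 h difference minus the 4 h difference was −0.85 (−0.76 at 10 h and 0.08 at 4 h). Some of these signs depended on the scaling: after quantile normalization the 4 h difference was −0.05 for RnrL and −0.02 for Mcm6, and with the length trend removed the 10 h difference of RnrL was 0.28. These contrasts between pairs of times were not tested on their own. The moderated F test over the 3 times in limma gave adjusted p-values of 0.95 for E2f2, 0.916 for RnrL, 0.951 for Klp61F and 0.765 for Mcm6.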

How the results depend on the processing

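Quantile normalization moved the median UPD minus Mock difference of the 27 genes to −0.052 at 2 h, −0.094 at 4 h and −0.45 at 10 h, the 4 h minus 2 h median to −0.0054 in UPD cells and 0.043 in Mock cells, and the 10 h minus 2 h median to −0.29 in UPD cells and 0.11 in Mock cells. Removal of the gene length trend moved it to −0.0095 at 2 h and −0.18 at 10 h, and gave 0.032 for 4 h minus 2 h in UPD cells and 0.031 in Mock cells, and −0.022 in UPD cells and 0.12 in Mock cells for 10 h minus 2 h. Counts of genes called moved from 0 for UPD minus Mock at 10 h to 9 with the brighter probe sets, of which 18.3% were called lower. With the variance trend the count was 10, where 9.51% of all probe sets were called lower. For Mock 10 h minus Mock 2 h it moved from 0 to 1 (Klp61F, lower) with the variance trend, where 814 of 18769 probe sets were called lower. For UPD 10 h minus UPD 2 h the count was 4, where 8.46% of all probe sets were called lower. It became 17 with the brighter probe sets (40.1% called lower) and 19 with the variance trend (20.3%). It became 0 after quantile normalization (335 of 18769 called lower) and with the length trend removed (213 of 13544). It was also 0 with the replicate block (631 of 18769) and with only the arrays compared (0 of 18769). With single arrays left out, that count ranged from 0 to 14, the count for UPD minus Mock at 10 h from 0 to 2 and its median from −1.02 to −0.52, the Mock 10 h minus 2 h median from −0.55 to −0.063, and the Mock 4 h minus 2 h median from −0.36 to −0.26. At 10 h 15 of the 27 genes kept a UPD minus Mock difference below 0 under all 20 alternatives, and 12 turned sign under some.

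Same-numbered UPD and Mock samples did not deviate together: the correlations of their deviations were −0.04 at 2 h, −0.03 at 4 h and −0.05 at 10 h, so the numbers were not taken as pairs, and apart from the loss of the calls within UPD cells and of PolE1 and shtd the replicate block changed no other call of the 27 genes. The filter on low values changed both the number of probe sets adjusted over and the moderation, with a prior SD of 0.34 with 2.76 degrees of freedom, against 0.57 with 1.54 over all probe sets. The cause of these changes was not tested. Dim probe sets have no floor in these values. In the fit to all probe sets, with 2 arrays a group, the SE was above 0.28 for all of the 27 genes.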
